A study of Mus musculus with 16 samples.

Results

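Etv5 and 9 genes linked to feedback on ERK signalling were examined in bone marrow progenitors of mice labelled wild type (WT) or Tet2 knockout (Tet2KO); Tet2 encodes an enzyme that oxidizes 5-methylcytosine in DNA. The 10 genes are the ETS transcription factors Etv5, Etv4 and Etv1, the phosphatases Dusp6 and Dusp4, the Sprouty genes Spry1, Spry2 and Spry4, and the Spred genes Spred1 and Spred2. They were taken by symbol from the 23418 symbols in each of the authors' deposited tables, and all 10 were found in both. Etv5 was selected on its log2 fold changes in these same tables, which were low in both populations, and the others because they belong to the same feedback circuit, with their values already known. Their changes are therefore a description, and the p-values beside them are the authors' own and support no statement about the genes as a set.

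The ERK pathway carries signals from receptors such as KIT and FLT3 through RAS, RAF and MEK to the ERK kinases. Active ERK raises transcription of its own brakes: dual-specificity phosphatases remove phosphate from ERK, and Sprouty and Spred proteins hold back RAS and RAF activation. ETV1, ETV4 and ETV5 form the PEA3 group of ETS factors, whose genes are induced by the same signal and kept silent by the repressor capicua (CIC) when the signal is low. In blood progenitors the pathway acts downstream of the cytokine receptors that sustain survival and growth.

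RNA came from bone marrow of mice aged 40 weeks, sorted by flow cytometry after enrichment for KIT. Multipotent progenitors (MPP) were sorted as Lin-cKit+Sca1+CD48+CD150- cells and granulocyte-monocyte progenitors (GMP) as Lin-cKit+Sca1-CD150-CD16/32+ cells. Each of the 4 groups held 4 libraries, 1 per mouse: MPP labelled WT, MPP labelled Tet2KO, GMP labelled WT and GMP labelled Tet2KO. The genotype label is Tet2fl/fl for WT, a floxed Tet2 allele, and Tet2-/- for Tet2KO. The promoter that drove the deletion is not given in the sources used here. By their labels, 3 mice per genotype gave both populations, so the tables are not independent. The tables hold results per gene and no value per library, so the spread between mice is seen only through the standard error (SE), and neither the depth of a library nor overlap between groups can be given.

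In the tables a gene was tested, with an adjusted p-value, when its mean normalized count over the 8 libraries of its population was at least 10 and the authors had not flagged an outlier for it. A gene is said here to be called, to rise or to fall, when the authors' adjusted p was at most 0.05. Tet2 itself was higher in libraries labelled Tet2KO, with a log2 fold change of 0.44 in MPP (SE 0.0992) and 0.35 in GMP (SE 0.0748), as listed in the authors' deposited tables. That value covers the whole gene and not the deleted part, so it does not check the labels, and each direction given rests on the names of the groups. Tet2 also overlaps the antisense gene model Gm42567. The gate markers followed the sort: the Sca1 gene Ly6a had a mean of 266 in the MPP table and 19.5 in the GMP table, and the CD16 gene Fcgr3 19.3 and 525, in the authors' deposited tables, which were normalized separately. Haemoglobin gene Hba-a1 was listed at 0 in both of the authors' deposited tables. The T cell genes Cd3e and Cd3d had means under 10 in both, while Lck had 77.0 in MPP and 8.67 in GMP. Cd79b (B cell) had means of 111 and 154 and Klf1 (erythroid) 96.1 and 132, in the authors' deposited MPP and GMP tables. No marker of another cell type was called in MPP, where 0.616% of all tested genes were. Tested there were 0 of 5 erythroid, 0 of 5 stromal and endothelial, 1 of 5 B cell and 1 of 3 T cell markers. The mast cell and basophil list had 2 of 5 tested and the megakaryocyte list 3 of 4.

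Promoter sequences are shown for Etv5, Dusp6 and Spred1, the genes called in GMP, since these fell there. RefSeq promoter windows (GRCm38.p6, the assembly of mm10) were found for 7 of the 10 genes, 9 windows in all, and not for Etv4, Dusp4 and Spry4. The 250 bases before each start site were searched on both strands for the CIC octamers TGAATGAA, TGAATGGA, TCAATGAA and TCAATGGA, for their cores TGAATG and TCAATG, which lie within the octamers, and for the PEA3 word AGGAAG. These words were chosen after the sequences were seen. Capitals mark the core in Etv5 and the octamer in Dusp6. The Etv5 window (chr16:22438369-22438618, minus strand) precedes the start site that lies inside the gene. The Dusp6 window is chr10:99262981-99263230 and the Spred1 window chr2:117120821-117121070, both on the plus strand.
Etv5: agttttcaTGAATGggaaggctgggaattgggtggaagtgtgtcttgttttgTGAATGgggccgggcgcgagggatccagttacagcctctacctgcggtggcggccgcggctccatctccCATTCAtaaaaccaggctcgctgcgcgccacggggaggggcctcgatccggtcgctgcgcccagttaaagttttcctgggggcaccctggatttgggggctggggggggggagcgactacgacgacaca
Dusp6: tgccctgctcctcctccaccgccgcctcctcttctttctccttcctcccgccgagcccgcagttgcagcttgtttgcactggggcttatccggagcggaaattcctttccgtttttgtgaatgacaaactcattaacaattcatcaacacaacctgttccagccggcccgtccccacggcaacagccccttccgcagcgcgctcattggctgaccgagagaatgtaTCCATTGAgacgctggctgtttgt
Spred1: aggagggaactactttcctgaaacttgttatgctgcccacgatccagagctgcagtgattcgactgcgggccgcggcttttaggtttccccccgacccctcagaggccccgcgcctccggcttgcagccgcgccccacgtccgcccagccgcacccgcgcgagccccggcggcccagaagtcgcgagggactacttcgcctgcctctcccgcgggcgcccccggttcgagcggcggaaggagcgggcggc

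An octamer stood in 2 of the 9 windows: TCAATGGA in Dusp6, on the opposite strand at 24 to 17 bases before the start, and TCAATGAA in Spry2 (chr14:105896820-105897069, minus strand), on the opposite strand at 54 to 47 bases before it. Of all 32851 windows 3.19% held an octamer. The core stood in 3 of the 9 windows, against 17.0% of all, and in the Etv5 window shown it occurred 3 times. The other Etv5 window (chr16:22439571-22439820, minus strand) held none of the searched words. AGGAAG was present in the windows of Dusp6, Etv1 and Spred2, against 29.5% of all windows. None of these words was found in the Spred1 window. These matches describe letters in a window, and no measurement of binding was used.

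The genes spanned a wide range of levels. Per kilobase of the longest annotated transcript, the mean normalized count in the authors' deposited MPP table was 129 for Dusp6, 112 for Spred1 and 94.2 for Spred2. Spry2 and Etv5 followed at 48.8 and 43.4 per kilobase, and Dusp4 and Spry1 at 12.5 and 10.9, in the same deposited table of the authors. Spry4, Etv1 and Etv4 were lowest, at 2.27, 1.20 and 0.929 per kilobase. Etv5 had the highest level of the PEA3 genes, and its relatives lay under the minimum mean of 10.

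In the authors' deposited GMP table Spred1 (106 per kilobase), Spred2 (104) and Dusp6 (86.3) again led, before Spry2 (60.9) and Etv5 (31.7). Spry1 stood at 8.15, Dusp4 at 3.63, Spry4 at 1.63, Etv4 at 1.03 and Etv1 at 0.184 per kilobase in that authors' deposited table. With the union of all exons as length, Etv4 came before Etv1 in MPP and Spred2 before Spred1 in GMP, and no other ranks changed. The means carry no error in the tables, so whether neighbours in this order differ beyond their spread cannot be said. Set as shares of each table's summed means, the level in GMP was 0.131 times that in MPP for Etv1 and 0.249 times for Dusp4. It was 0.572 times for Dusp6, 0.613 times for Spry4, 0.623 times for Etv5 and 0.638 times for Spry1. For Spred1, Spred2, Etv4 and Spry2 that ratio lay between 0.809 and 1.07. These ratios join 2 tables that the authors normalized separately and were not tested. Each mean pools WT and Tet2KO libraries, so the ratios also carry any change between genotypes. In GMP the means of Etv1, Etv4, Dusp4 and Spry4 lay under 10.

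**Figure D1:**
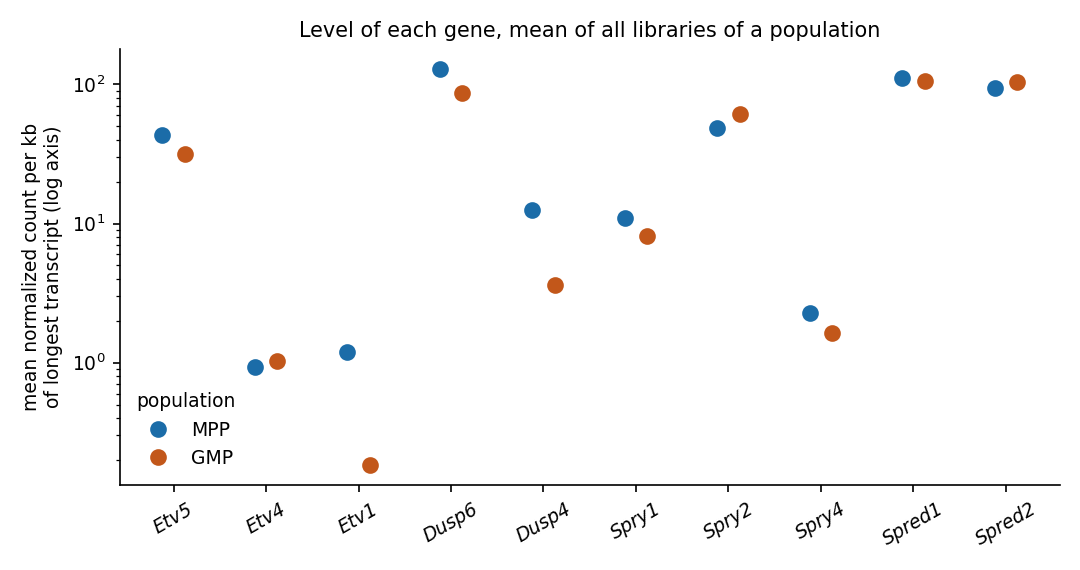
Mean normalized count per kilobase of the longest transcript for each gene (log axis), from the authors' deposited tables for MPP (blue) and GMP (orange), which were normalized separately; each point is the mean of 8 libraries and no error is available. Dusp6, Spred1 and Spred2 stand highest and Spry4, Etv1 and Etv4 lowest in both populations.

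Etv5, the most abundant PEA3 factor here and a known ERK target gene (chromosome 16, 22381309 to 22439719, minus strand, mm10), fell in both populations. In the authors' deposited MPP table its mean was 173 and its log2 fold change -0.93 (SE 0.240, adjusted p = 0.0219), so that Tet2KO-labelled libraries held 52.4% of the WT level (95% interval 37.8% to 72.6%). In the authors' deposited GMP table its mean was 126 and its log2 fold change -1.30 (SE 0.244, adjusted p = 3.41e-05), or 40.7% of the WT level (29.2% to 56.7%). Ordered from the lowest log2 fold change, Etv5 ranked 30 of 11859 tested genes in MPP and 5 of 11503 in GMP. Among tested genes with a mean of at least 50 it ranked 13 of 9770 in MPP and 2 of 9479 in GMP. Etv5 was selected on these same fold changes, so a low rank was fixed in advance and is only a description. These changes are relative amounts in bulk RNA, in which fewer cells expressing a gene and less RNA per cell cannot be told apart.

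The error of Etv5 was larger than that of most genes of its level. Its SE of 0.240 in MPP exceeded that of 92.6% of the 1257 genes with a mean of 0.8 to 1.25 times its own, whose median SE was 0.186, in the authors' deposited table. In GMP its SE exceeded that of 96.5% of 956 such genes, with a median of 0.165 in the authors' deposited table. When the statistics of all tested genes were rescaled to their own observed spread, the call of Etv5 in MPP was lost and that in GMP was kept.

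The other PEA3 genes were too weakly expressed to be tested. Etv4 (chromosome 11, 101769742 to 101785371, minus strand) had means of 2.23 in MPP and 2.46 in GMP and log2 fold changes of 0.62 (SE 0.355) and -0.02 (SE 0.330), as listed in the authors' deposited tables. Etv1 (chromosome 12, 38779380 to 38870484, plus strand) had means of 7.91 and 1.21 and log2 fold changes of -0.70 (SE 0.387) and 0.05 (SE 0.238), as listed in the authors' deposited tables. Both genes lay under the minimum mean of 10 in both populations and were not tested. Fold changes at such means appear shrunken towards 0 and may understate a change.

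Dusp6, a cytoplasmic phosphatase specific for ERK (chromosome 10, 99263231 to 99267489, plus strand), fell in GMP. Its mean there was 241 and its log2 fold change -0.64 (SE 0.173, adjusted p = 0.0119), as listed in the authors' deposited table, or 64.3% of the WT level (95% interval 50.9% to 81.3%). In MPP its mean was 361 and its log2 fold change -0.43 (SE 0.355), as listed in the authors' deposited table, where it was marked as an outlier and carries no p-value. That SE exceeded the SE of 99.5% of 1392 genes with a similar mean, whose median was 0.148 in the authors' deposited table. The MPP interval, 45.7% to 120% of the WT level, therefore holds both the GMP value and no change. Dusp4, a nuclear phosphatase of the same family (chromosome 8, 34807297 to 34819894, plus strand), had a log2 fold change of -0.20 (SE 0.340, adjusted p = 0.916) at a mean of 34.1 in MPP in the authors' deposited table. In GMP its mean of 9.93 lay just under the minimum and its log2 fold change was 0.01 (SE 0.358), as listed in the authors' deposited table.

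Among the Sprouty genes, which encode inhibitors of signalling from receptor tyrosine kinases, none was called by the authors' DESeq2 test, with Spry2 in MPP and Spry1 in GMP under an unadjusted p of 0.05. Spry2 (chromosome 14, 105891947 to 105896819, minus strand) had a log2 fold change of -0.57 in MPP (SE 0.221, p = 0.00957, adjusted p = 0.306) and -0.13 in GMP (SE 0.182, adjusted p = 0.795), as listed in the authors' deposited tables. At its SE in MPP a call would have needed a change of 0.80 on the log2 scale in the authors' deposited table. Spry1 (chromosome 3, 37639947 to 37644598, plus strand) lay on opposite sides of 0, at -0.41 in MPP (SE 0.321, adjusted p = 0.740) and 0.55 in GMP (SE 0.275, adjusted p = 0.293), as listed in the authors' deposited tables, with means of 30.3 and 22.6. Spry1 overlaps the unclassified gene model Gm42922 on the other strand, and reads of the pair cannot be told apart unless strand was used. Spry4 (chromosome 18, 38586247 to 38601415, minus strand), which overlaps 2 misc_RNA models, was marked as an outlier in MPP and lay under the minimum mean in GMP, with log2 fold changes of -0.38 (SE 0.368) and -0.53 (SE 0.359), as listed in the authors' deposited tables.

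Spred1, which recruits the RAS-inactivating protein neurofibromin to the membrane (chromosome 2, 117121374 to 117182279, plus strand), fell in GMP by a smaller amount. Its log2 fold change there was -0.33 (SE 0.10, adjusted p = 0.0302) at a mean of 639 in the authors' deposited table, or 79.4% of the WT level (95% interval 69.3% to 91.0%). In MPP it was -0.19 (SE 0.134, adjusted p = 0.700) at a mean of 675 in the authors' deposited table. Spred2, its relative (chromosome 11, 19924375 to 20024026, plus strand), had a log2 fold change of -0.25 in GMP (SE 0.135, adjusted p = 0.338) at a mean of 462 in the authors' deposited table. In MPP Spred2 was marked as an outlier, with a value of -0.17 (SE 0.203), as listed in the authors' deposited table.

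In all, 1 of 5 tested members was called lower in MPP and 3 of 6 in GMP, and none was called higher, in the authors' deposited tables made with DESeq2. Of members above 0, Spry1 in GMP alone had an unadjusted p under 0.05, at 0.0464 in the authors' deposited table. Over all tested genes 0.270% were called lower in MPP and 2.22% in GMP, and 0.346% and 1.75% were called higher. The median log2 fold change of the tested members was -0.41 in MPP and -0.29 in GMP, beside -0.0038 and 0.00025 over all tested genes, in the authors' deposited tables. Of all 10 members, tested or not, 9 lay below 0 in MPP and 7 in GMP, in the authors' deposited tables. Since these contrasts were used to select the genes, nothing is read from the counts or medians. The calls of Dusp6 and Spred1 in GMP were lost under the rescaled statistics, and that of Spred1 was lost without a minimum mean.

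**Figure D2:**
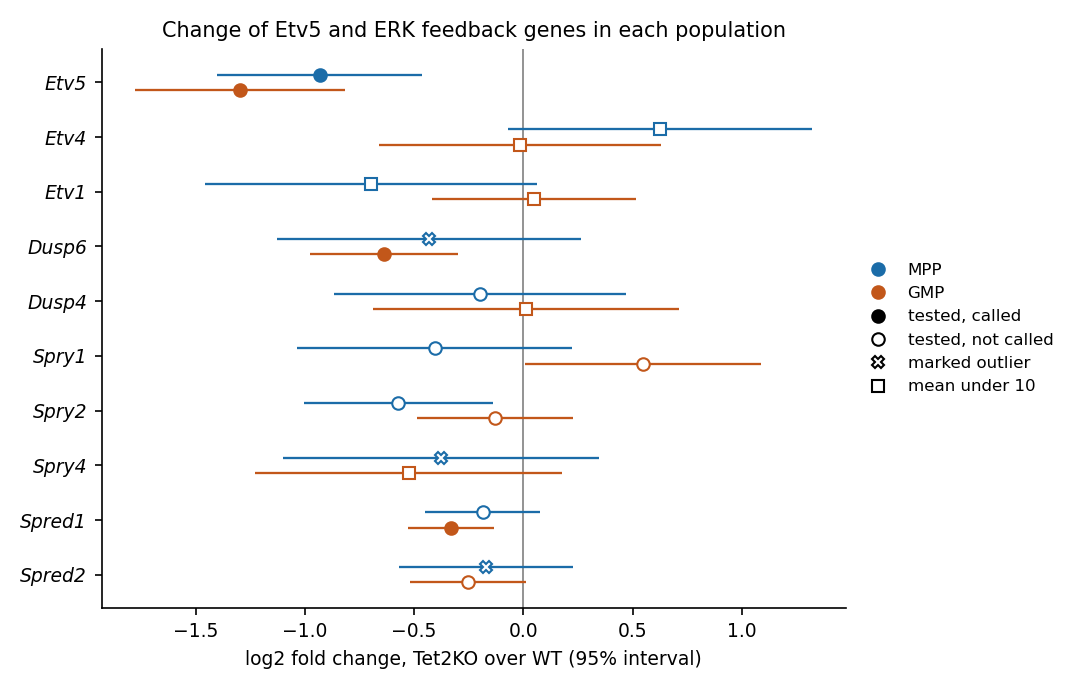
Log2 fold change between Tet2KO and WT for each gene, with its 95% interval, in MPP (blue) and GMP (orange), from the authors' deposited tables; filled symbols were called, open circles tested and not called, crosses marked as outliers and squares under a mean of 10. Etv5, which was selected on these fold changes, lies lowest in both populations, at -0.93 and -1.30. Spry1 is the tested gene above 0, in GMP.

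No member with a p-value in both populations passed a test of the difference in change between populations. For Etv5 the log2 fold change in GMP less that in MPP was -0.36 (SE 0.342, 95% interval -1.03 to 0.31), and for Spred1 it was -0.15 (interval -0.47 to 0.18), from the authors' deposited tables. Spry1 had the widest gap, 0.95 (SE 0.422, interval 0.13 to 1.78, not adjusted), and Spry2 had 0.44 (interval -0.12 to 1.00), from the authors' deposited tables. Over the 17660 genes that carry p-values in both populations, 0.0453% passed this normal test at an adjusted p of 0.05, and 0 of 7 members did, with 1 under an unadjusted p of 0.05. Etv4 and Etv1 in both populations and Dusp4 in GMP entered with means under 10, where only an unadjusted p-value is given. Dusp6, Spry4 and Spred2 have no p-value in MPP and were outside the test. The intervals allow sizeable differences, so the populations are not shown to respond alike.

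**Figure D3:**
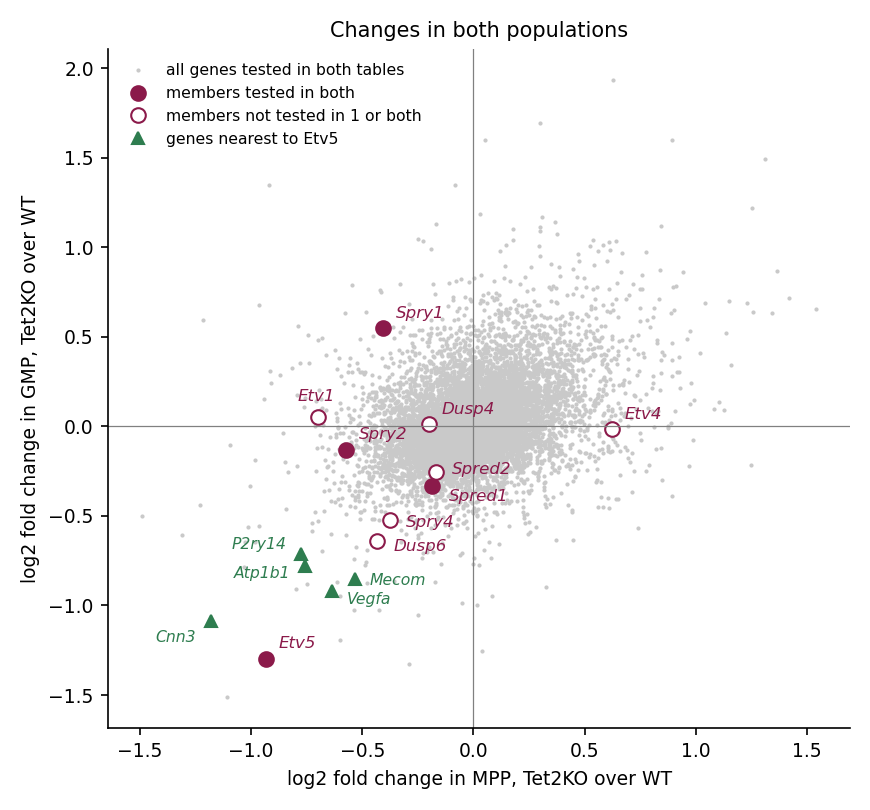
Log2 fold change of Tet2KO over WT in MPP (horizontal) against GMP (vertical), from the authors' deposited tables, for all genes tested in both (grey), the members (dark red; open where not tested in at least 1 population) and the genes nearest to Etv5 (green triangles). Etv5, which was selected on these values, lies at the lower left, at -0.93 and -1.30. On both axes 3 mice per genotype gave libraries.

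By the distance between pairs of log2 fold changes in MPP and GMP, among 9102 genes tested in both with means of at least 50, the 5 genes most like Etv5 were Cnn3, Vegfa, Atp1b1, Mecom and P2ry14. Cnn3, an actin-binding calponin, was nearest at a distance of 0.33, with log2 fold changes of -1.18 in MPP and -1.09 in GMP in the authors' deposited tables. Vegfa, an angiogenic growth factor, lay at 0.48, with -0.63 and -0.92, and the sodium pump subunit gene Atp1b1 at 0.55, with -0.76 and -0.78, in the authors' deposited tables. Mecom, a stem cell transcription factor gene, lay at 0.60, with -0.53 and -0.85, and the nucleotide-sugar receptor gene P2ry14 at 0.61, with -0.78 and -0.71, in the authors' deposited tables. Cnn3 and P2ry14 fell in both populations, and Vegfa, Atp1b1 and Mecom fell in GMP and were not called in MPP. Of the feedback genes only Spred1, at rank 227, and Spry2, at rank 231, entered this ordering. Among 9102 genes both ranks are nearer to Etv5 than most. Dusp6 and Spred2 were left out because they were marked as outliers in MPP, and the other members because their means were under 50. The likeness rests on a pair of values per gene, from tables that share mice, and Etv5 was selected on its pair.

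The rest of the pathway was read through 11 lists with 122 genes in the tables, chosen with earlier results of these data known. In MPP 2 of 95 tested genes were called (2.11%, against 0.616% of all tested genes), both higher, in the authors' deposited table. The authors' deposited GMP table had 8 of 88 called (9.09%, against 3.96% of all tested genes), 5 higher and 3 lower. The median log2 fold change over these genes was 0.05 in each population, from the authors' deposited tables. Over all tested genes 9.72% in MPP and 16.4% in GMP had an unadjusted DESeq2 p under 0.05. The counts under that p given for the lists stand beside these shares.

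Of the tested receptor tyrosine kinases, the entry points of the pathway, 6 of 7 lay above 0 in MPP and 7 of 8 in GMP, in the authors' deposited tables. Over all tested genes 50.9% and 49.9% lay below 0, and 0.346% in MPP and 1.75% in GMP were called higher. The list was chosen with earlier results known, so nothing is read from its counts. In GMP 3 of 8 tested rose: Met, the receptor for hepatocyte growth factor (0.86, SE 0.140, adjusted p = 5.86e-07), Csf1r, the receptor for macrophage colony-stimulating factor (0.56, SE 0.111), and Pdgfrb, a receptor for platelet-derived growth factor (0.48, SE 0.0909), as log2 fold changes in the authors' deposited table. In MPP Pdgfrb rose by 0.83 (SE 0.186, adjusted p = 0.00450) and Met had a value of 0.94 (SE 0.294, adjusted p = 0.119), as listed in the authors' deposited table. Kit, the stem cell factor receptor, had values of 0.08 (SE 0.10) and 0.01 (SE 0.0608) in MPP and GMP in the authors' deposited tables. Flt3, the receptor for FLT3 ligand, lay at -0.39 in MPP (SE 0.158), where it was marked as an outlier, and at 0.26 in GMP (SE 0.109, adjusted p = 0.173), as listed in the authors' deposited tables. Of the 4 ligand genes tested, Hgf, the ligand of MET, fell in GMP by 0.43 (SE 0.110, adjusted p = 0.00736), as listed in the authors' deposited table, and none was called in MPP, with 0 under an unadjusted p of 0.05 (Flt3l 0.34, adjusted p = 0.772).

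The core of the pathway showed no call. None of the 18 genes from RAS to ERK and its scaffolds was called in MPP or GMP by the authors' DESeq2 test, with 2 and 0 under an unadjusted p of 0.05. Over all tested genes 9.72% and 16.4% lay under that p, and 0.616% and 3.96% were called. At these shares the lack of a call among 18 genes says little. In the authors' deposited tables their log2 fold changes lay between -0.31 and 0.50 in MPP and between -0.16 and 0.55 in GMP. The RAS relatives Rras2 in MPP (0.50, adjusted p = 0.449) and Rras in GMP (0.55, adjusted p = 0.405) had the smallest p-values in the authors' deposited tables. Adaptors and exchange factors also had no call, with 1 gene under an unadjusted p of 0.05 in each population, Gab2 in MPP (0.46, adjusted p = 0.108) and Grb2 in GMP (-0.16, adjusted p = 0.169), as listed in the authors' deposited tables.

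The called kinases and GTPase regulators beside ERK lay in both directions, and most genes of both lists were not called. Of tested kinases 1 of 8 was called in MPP and 1 of 7 in GMP. Of 9 GTPase regulators tested in GMP 1 was called higher and 1 lower. Over all tested genes 0.616% in MPP and 3.96% in GMP were called, and 9.72% in MPP had an unadjusted DESeq2 p under 0.05. Nothing is read from these counts, since the lists were chosen with earlier results known. Of the kinases that ERK activates, Rps6ka2, which encodes the ribosomal S6 kinase RSK3, fell in GMP by 0.87 (SE 0.168, adjusted p = 5.78e-05), and Mknk1, which encodes an ERK-activated kinase of the translation factor eIF4E, rose in MPP by 0.54 (SE 0.142, adjusted p = 0.0299), as listed in the authors' deposited tables. Of the RAS-inactivating proteins, Rasa4 rose in GMP by 0.66 (SE 0.118, adjusted p = 9.44e-06) and Rasa2 fell there by 0.33 (SE 0.101, adjusted p = 0.0322), as listed in the authors' deposited table. In MPP none of 10 was called, with 2 under an unadjusted p of 0.05, and Rasal1 had a value of -1.20 (SE 0.381, adjusted p = 0.128), as listed in the authors' deposited table.

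Of other transcripts that ERK induces, all 5 tested in MPP lay above 0 (median 0.40, none called, 1 under an unadjusted p of 0.05), and 2 of 3 tested in GMP (median 0.31), in the authors' deposited tables made with DESeq2. Over all tested genes 50.9% in MPP and 49.9% in GMP lay below 0. In MPP 9.72% lay under that p, and in GMP 1.75% were called higher. The list was chosen with earlier results known and Ccnd1, below 0 in both populations, was not tested. Nothing is therefore read from these counts. Fos, an immediate early gene induced within minutes of ERK activation, rose in GMP by 1.04 (SE 0.281, adjusted p = 0.0120) and had a value of 0.64 in MPP (SE 0.343, adjusted p = 0.538), as listed in the authors' deposited tables. Ier3 had values of 0.49 and 0.31 and Egr1 of 0.05 and -0.28 in MPP and GMP, none called, in the authors' deposited tables. Myc, a growth regulator gene, lay at 0.20 in MPP (SE 0.106, adjusted p = 0.535) and at 0.26 in GMP, where it was marked as an outlier, in the authors' deposited tables. Ccnd1, the gene of cyclin D1, was named after its values were seen: it had log2 fold changes of -1.11 (SE 0.232) in MPP and -0.92 (SE 0.222) in GMP in the authors' deposited tables, but was marked as an outlier in both and carries no p-value.

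Other phosphatases of the Dusp family had no call in either population, with 1 gene under an unadjusted p of 0.05 in each. Over all tested genes 0.616% in MPP and 3.96% in GMP were called, and 9.72% and 16.4% had an unadjusted DESeq2 p under 0.05. Dusp7, like Dusp6 a phosphatase specific for ERK, had a value of 0.25 in GMP (SE 0.0888, adjusted p = 0.0889), and Dusp16 of -0.30 in MPP (SE 0.147, adjusted p = 0.490), as listed in the authors' deposited tables. Spred3 had values of 0.20 in MPP (SE 0.284) and 0.58 in GMP (SE 0.265, adjusted p = 0.234), as listed in the authors' deposited tables. Among 16 and 15 other tested ETS factors in MPP and GMP none was called, with 1 and 5 under an unadjusted p of 0.05, with Fli1 at 0.20 in MPP (adjusted p = 0.507), and Erf, an ETS repressor held in check by ERK, had a value of 0.38 in GMP (SE 0.138, adjusted p = 0.0922), as listed in the authors' deposited table. Cic, which encodes the repressor of the PEA3 genes named above, had values of 0.18 in MPP (SE 0.139, adjusted p = 0.717) and 0.23 in GMP (SE 0.0761, adjusted p = 0.0609), as listed in the authors' deposited tables.

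**Figure D4:**
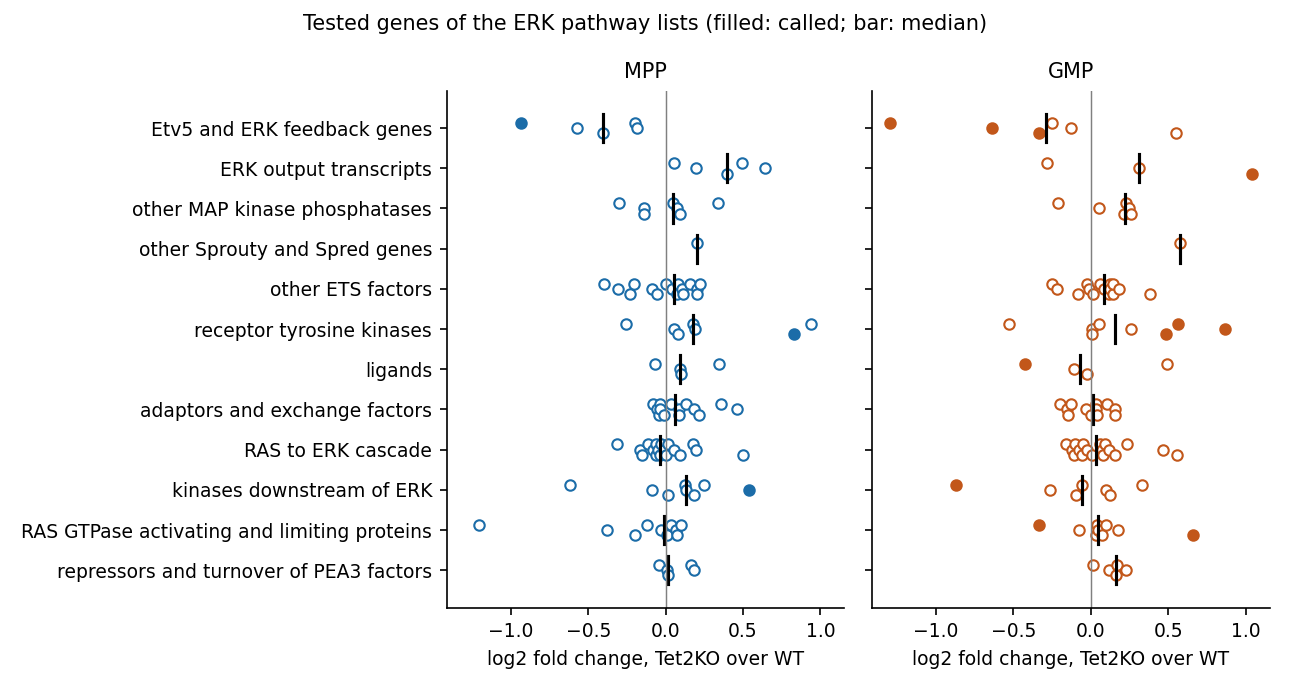
Log2 fold change of Tet2KO over WT for the tested genes of Etv5 and the feedback group and of each pathway list, in MPP (left, blue) and GMP (right, orange), from the authors' deposited tables; filled points were called and black bars are medians. The feedback group has medians of -0.41 and -0.29, and the genes from RAS to ERK have medians of -0.03 and 0.03. The genes and lists were chosen with these values known, so nothing is read from the gap between the medians.

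Around Etv5, 12 other protein-coding genes had some part within 500 kb, and 8 of them were tested in each population. In MPP none of them was called by the authors' DESeq2 test, with 1 under an unadjusted p of 0.05, and their log2 fold changes ran from -0.11 to 0.42 in the authors' deposited table. Over all tested genes 0.616% were called in MPP and 3.96% in GMP. In GMP 1 of the 8 neighbours was called, and their values ran from -0.44 to 0.16 in the authors' deposited table. There Dgkg, a diacylglycerol kinase gene that starts 218 kb upstream of Etv5, fell by 0.44 (SE 0.132, adjusted p = 0.0318), while in MPP it had a value of 0.42 (SE 0.184, adjusted p = 0.396), as listed in the authors' deposited tables. Tra2b, the nearest protein-coding gene downstream, with its start 174 kb away, had values of -0.11 and -0.08, and Igf2bp2, an RNA-binding protein gene, of 0.10 and -0.39, in MPP and GMP in the authors' deposited tables. Map3k13, Tmem41a, Senp2, Tbccd1 and Dnajb11 lay between -0.10 and 0.16 in both of the authors' deposited tables. Liph, Crygs, Ahsg and Fetub had means under 10.

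**Figure D5:**
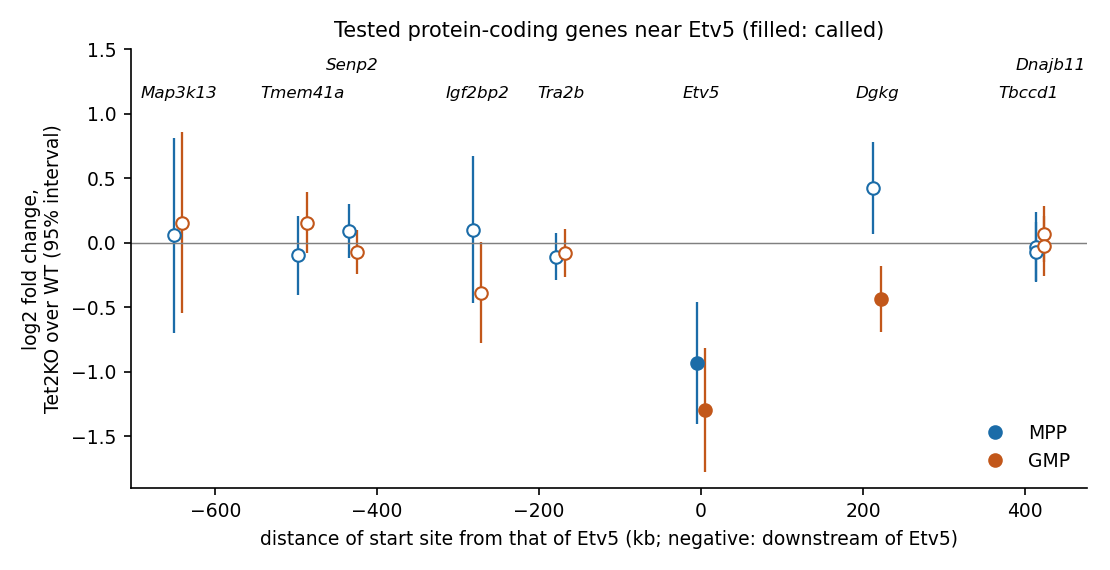
Log2 fold change between Tet2KO and WT and its 95% interval (vertical) for tested protein-coding genes near Etv5, against the distance of their start sites from that of Etv5 in kb (horizontal), for MPP (blue) and GMP (orange), from the authors' deposited tables; filled points were called. Etv5 at distance 0 lies below all its tested neighbours in both populations. It was selected on these low fold changes, so that position is only a description.

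Markers of other cell types moved in GMP as well. Of 5 mast cell and basophil markers 3 were tested there, all with values below 0, and Cma1 (-1.71) and Gata2 (-0.37) fell, while the outlier-marked Ms4a2 lay at -1.28 and Cpa3 at -0.28 in the authors' deposited table. Of 4 megakaryocyte markers 3 were tested in GMP, all above 0, and Pf4 (1.35) and Vwf (1.01) rose, in the authors' deposited table. Over all tested genes in GMP 2.22% were called lower and 1.75% higher. An unadjusted DESeq2 p under 0.05 was held by 9.72% of all tested genes in MPP and 16.4% in GMP. The means of these lists summed to 0.0507% and 0.00352% of all means in that authors' deposited table, with no member at 0 and no values per group. Of 5 tested granulocyte-monocyte markers Ctsg, a neutrophil protease gene, fell by 0.31 (SE 0.0767) there in the authors' deposited table. A total of 3 of the 5 had an unadjusted p under 0.05, the others being the gate gene Fcgr3 (-0.32, adjusted p = 0.204) and Fcgr2b (-0.26, adjusted p = 0.231), as listed in the authors' deposited table. In MPP none of the 2 tested mast cell and 3 tested megakaryocyte genes was called by the authors' DESeq2 test, with 0 and 2 under an unadjusted p of 0.05, and their lists summed to 0.0181% and 0.00370% of all means in the authors' deposited table. In MPP the tested mast cell genes lay at 0.13 (Mcpt8) and -0.14 (Gata2), and the untested Cma1, Ms4a2 and Cpa3 at -0.87, -0.61 and -0.17, in the authors' deposited table. Of the megakaryocyte genes Pf4 lay at -0.92 (p = 0.0167, adjusted p = 0.366), Itga2b at 0.44 (p = 0.00207, adjusted p = 0.148) and Vwf at 0.14 in MPP, as listed in the authors' deposited table. Lck, the 1 tested T cell marker in MPP, had a value of -0.86 (SE 0.307, adjusted p = 0.231), as listed in the authors' deposited table. None of 5 erythroid markers could be tested in either population. The part of these cell types in the changes of Etv5, Dusp6 and Spred1 was not tested.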

How the data were processed

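Per the labels' protocols, 2 ng of RNA per library was amplified and read from 1 end over 75 bp. The submitters' processing notes name STAR, mm10 and DESeq2, without versions. Neither the read counter nor its strand setting or gene models is given in the sources used here. Each deposited table holds the authors' mean normalized signal over the 8 libraries of a population, the log2 fold change between Tet2KO and WT and its SE, and the authors' p-value and adjusted p-value, per the file headers. The authors marked genes with a mean under 10 as low and left outliers without a p-value. Fold changes appear shrunken, since the SE never exceeds 0.388 in MPP or 0.359 in GMP. The depth of each library is unknown.

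No test was fitted to libraries. Benjamini-Hochberg values were recomputed and matched those of the authors within 2.4e-05. The difference between populations was the difference of log2 fold changes over the root of the summed squared SEs, two-sided. The calls and that test were tried on simulated data with independent normal errors at the listed SEs. Shared mice were not simulated, nor was the robust spread of log2 fold change over SE seen here, 1.15 in MPP and 1.35 in GMP. The differences between populations put in were larger than that of any member. The simulation therefore does not show how the calls or that test hold for these data. The 95% intervals use a normal error. Positions and lengths come from GENCODE M21 on mm10, and promoters from RefSeq. Lists were matched by symbol, 3 of them older symbols, and 1 symbol was not matched.

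The members and lists were chosen with earlier results of these data known. The rule for named genes took the 10 members, up to 4 called genes of each list per table by absolute log2 fold change, or the 1 with the smallest p where none was called, the protein-coding genes within 500 kb of Etv5, and the 5 genes nearest to Etv5. Outside it, Kit, Egr1, Ccnd1, Flt3, Myc, single marker genes and some values in the other table were chosen after they were seen. The scripts ran in Python 3.11.15 with pandas 2.3.3, numpy 2.4.6, matplotlib 3.10.9 and scipy 1.17.1.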

Additional observations from a re-analysis of the deposited data

How the results depend on the processing

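Of the 1 member called in MPP and 3 in GMP, the counts were 0 and 1 with the statistics rescaled to their robust spread over all genes (an empirical null), and 0 and 1 at an adjusted p of 0.01. Etv5 was the gene kept in GMP in both. Without a minimum mean the counts were 1 and 2, Spred1 being lost. With a minimum mean of 50, recentring on the median, an adjusted p of 0.1, or outlier-marked genes tested too (chosen after the data were seen), they stayed at 1 and 3, with the same genes. Recentring kept the sign of all 20 member values. No member passed the test of a difference between populations with independent errors, with errors set as correlated at 0.346, or with a minimum mean of 50. The 0.346 is the correlation of log2 fold change over SE between populations across 17660 genes. It is not a measured correlation of errors. Exon union lengths lowered 14 of 20 levels per kilobase and left 6 as they were. Leaving out replicates was not run, and no paired analysis was possible because the tables hold no value per library. Replicates are separate mice. For members with means under 50 a call needed changes of 0.85 or more on the log2 scale, so smaller changes were not detectable.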
